A study of Homo sapiens with 8 samples.

Results

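The miR-30 family is a group of microRNAs (miRNAs), short RNAs that pair with messenger RNAs and lower their output. Its members were taken by name as the 5p and 3p arms of miR-30a to miR-30e. All 10 listed arms had a row, 5 of them 5p arms and 5 of them 3p arms, among the 594 miRNAs measured. The libraries came from H1 cells, an established line of human embryonic stem cells, and the study asked what a Dicer mutation recurrent in cancer does to such cells. The 4 genotypes, with 2 libraries each, were CRISPR-Cas9 engineered cells homozygous for Dicer-S1344L, CRISPR-Cas9 engineered cells hemizygous for Dicer-S1344L, Dicer-null cells and wild-type cells. The labels describe the RNA samples as biologically independent. They do not say how many clones stand behind each genotype or how the null cells were made. The second allele of the hemizygous cells is given only as a code. The sample descriptions read pmpm for homozygous, pmfs for hemizygous and fsfs for null cells, and do not spell out pm or fs.

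A miRNA gene is transcribed as a hairpin, and Dicer cuts off the loop to leave a duplex of a 5p arm and a 3p arm, of which usually one is retained. The RNase IIIb domain of Dicer makes the cut that frees the 5p arm and the RNase IIIa domain the cut that frees the 3p arm. The amino acid S1344 lies in the RNase IIIa domain. In the miR-30 family the 5p arm is the one that normally accumulates. The 5p arms are known for restraining the epithelial-mesenchymal transition, among other ways by repressing the transcription factor SNAI1, and for roles in kidney, heart and epithelium.

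The mature sequences are shown because they separate what the members share from what they do not. They are from RefSeq (GRCh38.p14), which was matched for 6 of the 10 arms, and capitals mark the seed, bases 2 to 8 from the 5′ end, which pairs with targets. The 3 5p arms shown carry 1 seed.
miR-30a-5p: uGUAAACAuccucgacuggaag
miR-30c-5p: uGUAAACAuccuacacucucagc
miR-30e-5p: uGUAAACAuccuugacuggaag
The 3 3p arms shown carry 2 other seeds, one held by miR-30a-3p and miR-30e-3p and one by miR-30c-2-3p.
miR-30a-3p: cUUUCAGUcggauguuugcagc
miR-30e-3p: cUUUCAGUcggauguuuacagc
miR-30c-2-3p: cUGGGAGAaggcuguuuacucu
Counted from the 5′ end, miR-30a-5p and miR-30e-5p differ at 1 base, C13U, and miR-30a-3p and miR-30e-3p at 1 base, G18A. The reads of these near copies could be split between them by the authors' counting, and no source used here gives its rules for mismatches. miR-30c-5p differs from miR-30a-5p at 5 of 22 compared positions, all outside the seed.

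The hairpins of miR-30e, miR-30c-2 and miR-30a are shown with both mature arms in capitals, since the comparison of arms is made within each of them.
MIR30E: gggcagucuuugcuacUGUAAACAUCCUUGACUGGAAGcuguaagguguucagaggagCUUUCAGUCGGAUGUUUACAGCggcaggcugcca
MIR30C2: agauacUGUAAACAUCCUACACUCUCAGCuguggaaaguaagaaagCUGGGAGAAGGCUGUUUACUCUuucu
MIR30A: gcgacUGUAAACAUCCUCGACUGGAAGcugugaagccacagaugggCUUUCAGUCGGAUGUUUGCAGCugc
MIR30E lies on the plus strand at chr1:40754355-40754446, in an intron of NFYC, a subunit gene of the transcription factor NF-Y. MIR30C2 (chr6:71376960-71377031) and MIR30A (chr6:71403551-71403621) lie on the minus strand in introns of 2 overlapping long noncoding RNA genes, LINC00472 and AL136164.2, in the GENCODE 29 annotation. The stretch between the arms is 20 bases in MIR30E, 17 in MIR30C2 and 19 in MIR30A. miR-30c-5p has a second source, MIR30C1 (chr1:40757284-40757372, plus strand, in NFYC as well), whose mature 5p arm is the same sequence, so its level sums 2 loci.

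Levels are given in RPM, the reads of an arm scaled to a denominator that the authors set for each library. It is not the miRNA total: the miRNA reads of a library came to between 0.118 and 2.43 times its denominator. The libraries held 2289926 and 1814568 miRNA reads in homozygous, 1000101 and 1833057 in hemizygous, 165317 and 137655 in null, and 2680973 and 2725756 in wild-type cells. One read is worth 0.715 to 1.33 RPM and a count of 0 allows up to 3 reads, or 2.14 to 3.99 RPM. Hemizygous replicate 1 stood apart, and the median log2 gap of replicate 2 over replicate 1 across all miRNAs was 1.94 there, beside -0.23 in homozygous, 0.79 in null and 0.23 in wild-type cells. Of 8 miRNAs that mark pluripotent cells, all were measured, and they held 48.7% and 49.7% of the miRNA reads in homozygous, 51.6% and 50.3% in hemizygous, 52.3% and 45.6% in null, and 39.7% and 38.0% in wild-type cells. Markers of fibroblasts held 0.0006% to 0.0175% of the reads in all 8 libraries, with 3 of 6 markers in the table, and neural markers 0.540% to 1.59%, with 3 of 3 in the table. The part of these markers in the miR-30 results was not tested.

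In homozygous S1344L cells the family did not move as one. The 5p arms of miR-30c and miR-30a fell, those of miR-30b, miR-30d and miR-30e did not pass the test, and the normally scarce 3p arms of miR-30c-2, miR-30d and miR-30b rose. Of the 10 arms, 5 passed, at an adjusted p under 0.05 from limma with Benjamini-Hochberg adjustment over all 594 miRNAs, against 32% of all miRNAs. Among 5p arms, 2 of 5 were lower, against 48.9% of the 227 5p-named arms, and among 3p arms, 3 of 5 were higher, against 18.7% of the 300 3p-named arms. The median log2 fold change was -0.59 over the 5p members and -2.26 over all 5p-named arms, and it was 3.39 over the 3p members and 0.68 over all 3p-named arms. Fold changes are on the log2(RPM + 1) scale. In bulk RNA, a lower level in every cell and fewer cells that hold the miRNA cannot be told apart. The number of arms that passed was 8 with the 4 libraries alone and with upper-quartile scaling, and it was 2, 1, 1 and 2 without homozygous replicate 1, homozygous replicate 2, wild-type replicate 1 and wild-type replicate 2.

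**Figure D1:**
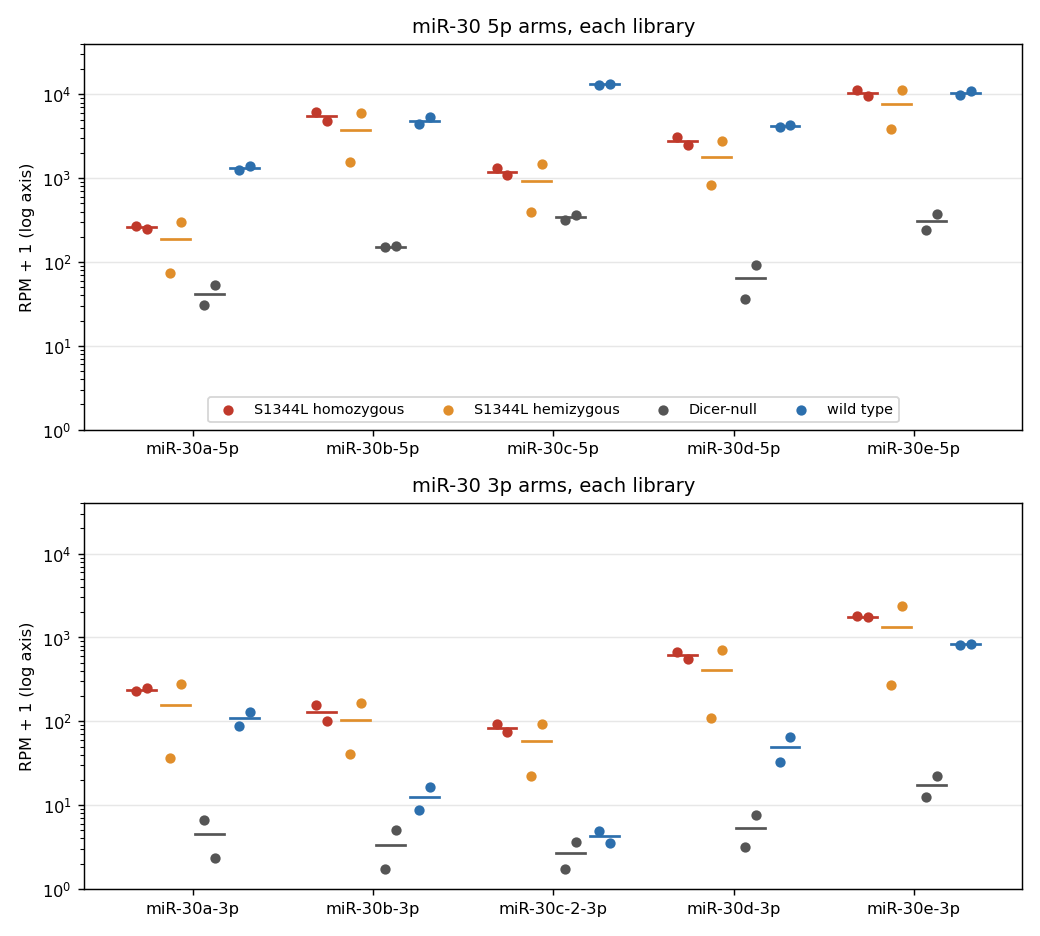
RPM + 1 of each miR-30 arm on a log axis, 5p arms in the upper panel and 3p arms in the lower, with 1 point per library and a bar at the mean of each genotype (n = 2). miR-30c-5p lies at 1080 and 1323 RPM in homozygous cells, against 13102 and 13486 RPM in wild-type cells, while the points of miR-30e-5p in these 2 genotypes overlap.

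miR-30c-5p, the most abundant arm of the family in wild-type cells, had 1323 and 1080 RPM in homozygous libraries, 399 and 1478 RPM in hemizygous libraries, 319 and 363 RPM in null libraries, and 13102 and 13486 RPM in wild-type libraries. All 6 mutant libraries lay below both wild-type libraries, and the lower hemizygous library came close to the null ones. The mean was 1201 ± 172 RPM in homozygous and 13294 ± 272 RPM in wild-type cells (SD, n = 2 each), a log2 fold change of -3.47 ± 0.88 (SE; limma adjusted p = 0.000763). In hemizygous cells the mean was 938 ± 763 RPM and the log2 fold change -4.11 ± 0.88 (limma adjusted p = 3.71e-05). Among all miRNAs of a library, miR-30c-5p ranked 139 and 140 in homozygous, 126 and 131 in hemizygous, 42 and 61 in null, and 26 and 28 in wild-type cells. The homozygous call was kept without homozygous replicate 1 (adjusted p = 0.0458) and lost in the other leave-outs of these genotypes, at 0.082 without homozygous replicate 2, 0.056 without wild-type replicate 1 and 0.0548 without wild-type replicate 2.

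miR-30a-5p, the least abundant 5p arm, had 269 and 246 RPM in homozygous libraries, 73.6 and 299 RPM in hemizygous libraries, 30.01 and 51.9 RPM in null libraries, and 1249 and 1386 RPM in wild-type libraries. It too was below both wild-type libraries in all 6 others. The log2 fold change was -2.35 ± 0.97 in homozygous cells (limma adjusted p = 0.0472) and -3.14 ± 0.97 in hemizygous cells (limma adjusted p = 0.00507). Both SEs come from a variance trend that limma fitted across all miRNAs and all 8 libraries, the low hemizygous replicate 1 among them. The prior degrees of freedom of that fit were infinite. The spread of miR-30a-5p between its own libraries therefore had no weight of its own in these SEs. The homozygous call was borderline, though kept with the 4 libraries alone and without either hemizygous library, at the same log2 fold change of -2.35. It was lost with a pseudocount of 0.5 RPM (adjusted p = 0.0512), without both null libraries (0.07), without null replicate 1 (0.069) or 2 (0.0686), and without either library of the 2 genotypes compared (0.275 to 0.314). The hemizygous call was lost without wild-type replicate 1 (0.0845) or 2 (0.116) and with the 4 libraries alone (0.0865).

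The other 5p arms, which share the seed, did not pass the test in homozygous cells. miR-30e-5p had 11205 and 9484 RPM in homozygous libraries, 3917 and 11357 RPM in hemizygous libraries, 241 and 369 RPM in null libraries, and 9956 and 10917 RPM in wild-type libraries. The homozygous and wild-type libraries overlapped, with a log2 fold change of -0.02 ± 0.84 whose 95% interval ran from -1.65 to 1.62 (limma adjusted p = 0.992). A test with this interval cannot tell a change of up to about that size from none. With upper-quartile scaling the sign turned and the change passed (0.89, adjusted p = 0.00554).

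miR-30b-5p had 6157 and 4847 RPM in homozygous libraries, 1554 and 6074 RPM in hemizygous libraries, 151 and 153 RPM in null libraries, and 4380 and 5354 RPM in wild-type libraries. Homozygous and wild-type libraries overlapped, at a log2 fold change of 0.17 with a 95% interval from -1.53 to 1.87 (limma adjusted p = 0.928). It passed with upper-quartile scaling (1.08, adjusted p = 0.0068). miR-30d-5p had 3101 and 2508 RPM in homozygous libraries, 837 and 2782 RPM in hemizygous libraries, 35.0 and 90.5 RPM in null libraries, and 4085 and 4294 RPM in wild-type libraries. Its homozygous libraries were both below the wild-type ones, yet the log2 fold change of -0.59 (95% interval -2.34 to 1.17) did not pass (limma adjusted p = 0.711). It passed when the 4 libraries were fitted alone (adjusted p = 0.0342), and turned to 0.32, not past the threshold, with upper-quartile scaling (0.287).

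Because these 5 arms were counted in the same libraries, the ratio of 1 arm to another, taken on RPM + 1, depends little on how a library was scaled. The log2 ratio of miR-30c-5p to miR-30e-5p was -3.08 and -3.13 in homozygous libraries, -3.29 and -2.94 in hemizygous libraries, 0.41 and -0.02 in null libraries, and 0.40 and 0.30 in wild-type libraries. Both S1344L genotypes were clear of the wild type, and the null libraries lay near it. The means were -3.11 ± 0.04 in homozygous, -3.12 ± 0.25 in hemizygous, 0.19 ± 0.30 in null and 0.35 ± 0.06 in wild-type cells (SD, n = 2 each). The log2 ratio of miR-30a-5p to miR-30e-5p, near copies of each other, averaged -5.32 ± 0.08 in homozygous, -5.48 ± 0.33 in hemizygous, -2.88 ± 0.11 in null and -2.99 ± 0.01 in wild-type cells. The differences from the wild type were -3.46 and -2.33 in homozygous cells, larger than the SD of any of the 4 genotypes. The ratio to miR-30e-5p moved by 0.19 for miR-30b-5p and by -0.57 for miR-30d-5p. The smaller shift of miR-30d-5p was also larger than the SD of any genotype. Its means were -1.89 ± 0.05 in homozygous, -2.13 ± 0.14 in hemizygous, -2.38 ± 0.52 in null and -1.32 ± 0.04 in wild-type cells. For each of the 4 ratios in homozygous cells the exact permutation p (two-sided) was 0.33, and 2 libraries against 2 cannot give a smaller one. The pairs were chosen after the values had been seen.

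The shares of the summed 5p RPM show the same split. miR-30c-5p made up 5.998% and 5.94% of the 5p family in homozygous libraries, 5.88% and 6.72% in hemizygous libraries, 41.1% and 35.4% in null libraries, and 40.0% and 38.1% in wild-type libraries. miR-30e-5p made up 50.8% and 52.2% in homozygous, 57.8% and 51.6% in hemizygous, 31.0% and 35.9% in null, and 30.4% and 30.8% in wild-type libraries. The leading 5p arm was thus miR-30e-5p in all 4 S1344L libraries and miR-30c-5p in both wild-type libraries. miR-30b-5p held 27.9% and 26.7% of the family in homozygous and 13.4% and 15.1% in wild-type libraries. miR-30d-5p held 14.1% and 13.8% in homozygous and 12.5% and 12.1% in wild-type libraries. In the null libraries, where 772 to 1087 5p family reads were left, the shares of miR-30c-5p and miR-30a-5p were near those of the wild type. The share of miR-30d-5p was lower than in the wild type, at 4.51% and 8.81%.

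**Figure D2:**
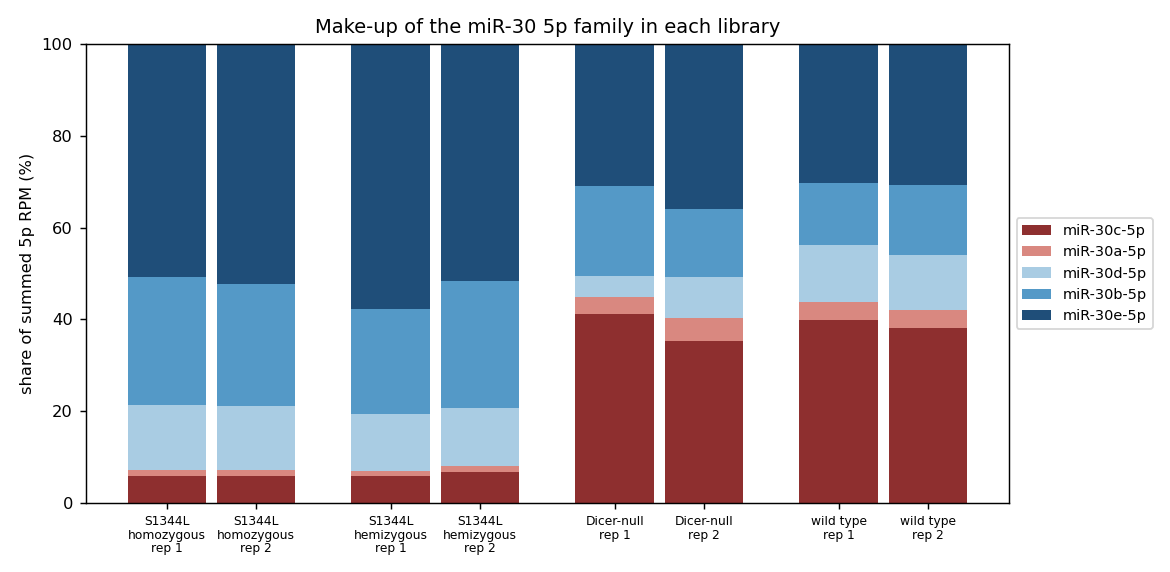
Stacked shares (%) of the summed RPM of the 5 miR-30 5p arms in each library, with 1 bar per library and red shades for miR-30c-5p and miR-30a-5p. miR-30c-5p takes 5.88% to 6.72% in the 4 S1344L libraries, 41.1% and 35.4% in the null libraries and 40.0% and 38.1% in the wild-type libraries.

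All 5p members are known to repress through 1 seed, so their sum is the amount of that seed that the family supplies. The 5p arms summed to 22056 and 18165 RPM in homozygous libraries, 6780 and 21990 RPM in hemizygous libraries, 777 and 1027 RPM in null libraries, and 32773 and 35438 RPM in wild-type libraries. Every mutant library lay below the wild-type ones. The mean was 59.0% of the wild-type mean in homozygous cells, 42.2% in hemizygous cells and 2.65% in null cells, each at an exact permutation p of 0.33 (two-sided), the smallest possible. Without miR-30c-5p the homozygous sum differed from the wild type by -0.14 on the log2 scale, against -0.76 with it. With median-ratio scaling the log2 difference was -0.36 in homozygous, -0.17 in hemizygous and -0.72 in null cells, and with scaling to own miRNA reads it was -1.34 in null cells, against -5.24 as deposited. In hemizygous cells it was -1.25, and -0.63 or -2.33 without hemizygous replicate 1 or 2. As a share of all miRNA reads the 5p family took 0.909% and 0.833% in homozygous, 0.930% and 0.908% in hemizygous, 0.658% and 0.561% in null, and 1.57% and 1.52% in wild-type libraries. On that scale, which is free of the deposited denominator, hemizygous replicate 1 was no longer set apart in its 5p sum. Each 3p arm still held a lower share there than in replicate 2. The most abundant, miR-30e-3p, took 0.0372% and 0.0973% in hemizygous replicates 1 and 2, and 0.0740% and 0.0808% in homozygous libraries.

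Among the 3p arms, the strands that are mostly discarded in wild-type cells, 3 of 5 rose. Only at miR-30c were both arms called, in opposite directions. miR-30c-2-3p had 92.2 and 73.3 RPM in homozygous libraries, 21.1 and 92.5 RPM in hemizygous libraries, 0.715 and 2.66 RPM in null libraries, and 3.89 and 2.57 RPM in wild-type libraries. These are 87 and 61 reads in homozygous libraries, 29 and 70 in hemizygous, 1 and 2 in null, and 5 and 3 in wild-type libraries. All 4 S1344L libraries exceeded all 4 others, although the wild-type level is at the edge of what the depth resolves. The log2 fold change was 4.32 ± 0.98 in homozygous cells (limma adjusted p = 0.000199) and 3.44 ± 0.98 in hemizygous cells (limma adjusted p = 0.0024). Pooled over the 2 libraries of each genotype, the ratio of homozygous to wild-type RPM was 25.6, with a 95% interval of 12.6 to 60.3 for counting error alone. The hemizygous call was lost without wild-type replicate 2 (adjusted p = 0.0985) and with the 4 libraries alone (0.0572).

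miR-30d-3p had 674 and 546 RPM in homozygous libraries, 109 and 708 RPM in hemizygous libraries, 2.14 and 6.65 RPM in null libraries, and 31.9 and 64.2 RPM in wild-type libraries. All S1344L libraries were above the wild-type ones, and the null libraries were below them. The log2 fold change was 3.71 ± 1.01 in homozygous cells (limma adjusted p = 0.00171) and 2.59 ± 1.01 in hemizygous cells (0.0306). miR-30b-3p had 154 and 101 RPM in homozygous libraries, 40.1 and 163 RPM in hemizygous libraries, 0.715 and 3.99 RPM in null libraries, and 7.79 and 15.4 RPM in wild-type libraries. The order of the genotypes was the same as for miR-30d-3p. Its log2 fold change was 3.39 ± 1.01 in homozygous cells (limma adjusted p = 0.00472) and 2.77 ± 1.01 in hemizygous cells (0.0206). The homozygous call of miR-30d-3p was lost without homozygous replicate 1 (adjusted p = 0.104), homozygous replicate 2 (0.082) or wild-type replicate 1 (0.115), and kept without wild-type replicate 2 (0.0391). For miR-30b-3p the adjusted p was 0.151, 0.0932, 0.16 and 0.0533 without homozygous replicate 1, homozygous replicate 2, wild-type replicate 1 and wild-type replicate 2. The hemizygous calls of both arms were lost without either homozygous library (0.0667 to 0.0985), without hemizygous replicate 2 (0.0761 for miR-30b-3p and 0.165 for miR-30d-3p), without either wild-type library (0.106 to 0.335) and with the 4 libraries alone (0.157 and 0.189).

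The remaining 3p arms, miR-30e-3p and miR-30a-3p, did not pass. miR-30e-3p, the most abundant 3p arm in all 8 libraries, had 1794 and 1762 RPM in homozygous libraries, 271 and 2358 RPM in hemizygous libraries, 11.4 and 21.3 RPM in null libraries, and 818 and 845 RPM in wild-type libraries. The homozygous libraries lay above both wild-type ones, at a log2 fold change of 1.10 ± 0.94 that did not pass (limma adjusted p = 0.442). It did pass with median-ratio (1.51, adjusted p = 0.0113), upper-quartile (2.00, 0.00269) and quantile (1.80, 0.00229) scaling and with the 4 libraries alone (0.00241). miR-30a-3p had 228 and 248 RPM in homozygous libraries, 35.0 and 276 RPM in hemizygous libraries, 5.72 and 1.33 RPM in null libraries, and 86.4 and 129 RPM in wild-type libraries. Homozygous libraries were again the higher ones, with a log2 fold change of 1.16 ± 1.02 (limma adjusted p = 0.453, and 0.0172 with the 4 libraries alone). In hemizygous cells these arms stood at -0.06 and -0.10, with libraries on both sides of the wild type.

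miR-30c-1-3p, the 3p arm of the other miR-30c locus and not one of the 10 arms, shares its seed with miR-30c-2-3p and differs from it at 3 bases, A9G, C12U and U22C counted from miR-30c-2-3p. It had 464 and 371 RPM in homozygous libraries, 165 and 457 RPM in hemizygous libraries, 3.57 and 5.32 RPM in null libraries, and 38.9 and 58.2 RPM in wild-type libraries. Its log2 fold change was 3.10 ± 1.01 in homozygous and 2.50 ± 1.01 in hemizygous cells (limma adjusted p = 0.0096 and 0.0386). The gain of both miR-30c 3p arms was small beside the loss of their 5p arm. Relative to wild-type cells, the mean of miR-30c-5p in homozygous cells fell by 12093 RPM and both 3p arms together gained 449 RPM.

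**Figure D3:**
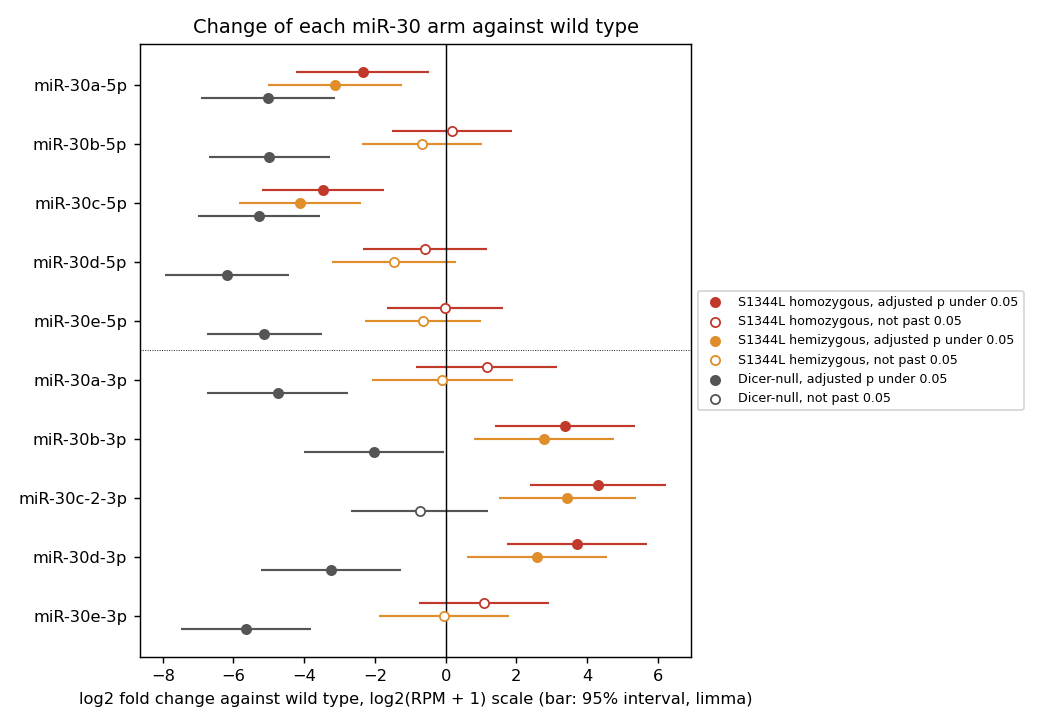
Log2 fold change of each miR-30 arm against wild type on the log2(RPM + 1) scale, with 95% intervals from limma, for homozygous, hemizygous and null cells, filled where the adjusted p is under 0.05. In homozygous cells the filled points are miR-30a-5p (-2.35), miR-30c-5p (-3.47), miR-30b-3p (3.39), miR-30c-2-3p (4.32) and miR-30d-3p (3.71).

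In hemizygous cells the same 5 arms passed, 2 of 5 5p arms as lower, against 60.4% of all 5p-named arms, and 3 of 5 3p arms as higher, against 8% of all 3p-named arms; 34.5% of the 594 miRNAs passed in either direction. The 2 comparisons share their wild-type libraries. Tested directly, hemizygous against homozygous cells gave 0 of 10 arms, with log2 differences of -1.26 to -0.62 and 0 arms at an unadjusted p under 0.05. Over all 594 miRNAs limma called 0 (0%) as well, with 7 at an unadjusted p under 0.05. All 10 differences were negative, in step with the low hemizygous replicate 1: without it the median over the arms was 0.22, and without replicate 2 it was -1.80 and 9 of the 10 arms passed, as did 416 of all 594 miRNAs. Against the wild type, 6 arms passed without hemizygous replicate 1, miR-30e-3p among them as higher (1.503, adjusted p = 0.0458). Without replicate 2, 7 passed, miR-30b-5p (-1.64, 0.00729), miR-30d-5p (-2.32, 0.00676), miR-30e-5p (-1.41, 0.013) and miR-30e-3p (-1.61, 0.027) among them as lower. The count was 3 without either homozygous library, 2 and 1 without wild-type replicate 1 and 2, 1 with the 4 libraries alone and 8 with upper-quartile scaling.

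Null cells were taken as the reference for a level without Dicer, though the source of the reads left in them was not tested. There 9 of 10 arms fell, against 87.4% of all 594 miRNAs (88.7% passed in either direction): 5 of 5 5p arms, against 89.9% of 5p-named arms, and 4 of 5 3p arms, against 91% of 3p-named arms. The 5p arms stood at log2 fold changes of -6.19 to -4.98, with a median of -5.12, beside -4.85 over all 5p-named arms. The 3p arms ran from -5.64 for miR-30e-3p to -0.74 for miR-30c-2-3p, the arm that did not pass (limma adjusted p = 0.467), with 1 and 2 reads in null libraries and 5 and 3 in wild-type libraries. miR-30b-3p passed narrowly (-2.04, adjusted p = 0.0493), and not without null replicate 1 or any homozygous or wild-type library (0.0875 to 0.354). miR-30d-3p (-3.24) did not pass without null replicate 1 (0.0525) or wild-type replicate 2 (0.0666). How far null cells lay below the wild type varied with the scaling. Over all miRNAs the median was -4.60 as deposited, and -1.16 under scaling to own miRNA reads, which turned miR-30b-3p, miR-30c-2-3p and miR-30d-3p to 1.08, 2.09 and 0.31. With median-ratio, upper-quartile and quantile scaling, 5, 3 and 5 arms passed in either direction.

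Against null cells, 9 of 10 arms were higher in homozygous cells and 8 of 10 in hemizygous cells, against 76.3% and 64.6% of all 594 miRNAs called higher. The exceptions were the 5p arms that fell. miR-30c-5p differed by 1.81 between homozygous and null cells (limma adjusted p = 0.0508) and by 1.17 between hemizygous and null cells (0.235), and miR-30a-5p by 2.67 (0.00806) and 1.88 (0.0743). Both turned below the null level under scaling to own miRNA reads, miR-30c-5p to -2.15 and -2.0015 and miR-30a-5p to -1.25 and -1.26 in homozygous and hemizygous cells (adjusted p between 0.000127 and 0.00402). As a share of all miRNA reads miR-30c-5p took 0.0545% and 0.0495% in homozygous, 0.0547% and 0.0610% in hemizygous, 0.270% and 0.198% in null, and 0.628% and 0.578% in wild-type libraries. The call of miR-30a-5p between homozygous and null cells was lost without homozygous replicate 1 (0.0907), homozygous replicate 2 (0.073) or null replicate 1 (0.0938). That of miR-30c-5p was gained without either hemizygous library (0.000525 and 0.000541), and between hemizygous and null cells both arms passed without hemizygous replicate 1 (0.000761 for miR-30a-5p and 0.0008 for miR-30c-5p).

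Within a hairpin the 2 arms come from the same precursor. The ratio of 3p to 5p is nearly free of the scaling where both arms lie well above the pseudocount. It moved toward the 3p arm at 4 of 5 miR-30 hairpins in homozygous cells and at 4 of 5 in hemizygous cells, by limma with adjustment over 204 hairpins, of which 80.9% and 78.9% moved that way. The median shift over the 5 hairpins was 3.51 in homozygous and 3.43 in hemizygous cells, beside 3.43 and 3.08 over all hairpins. Count and median were both near those of all hairpins. The size ran from 1.11 to 7.79 among the 5 in homozygous cells, and miR-30e was the hairpin that did not pass.

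**Figure D4:**
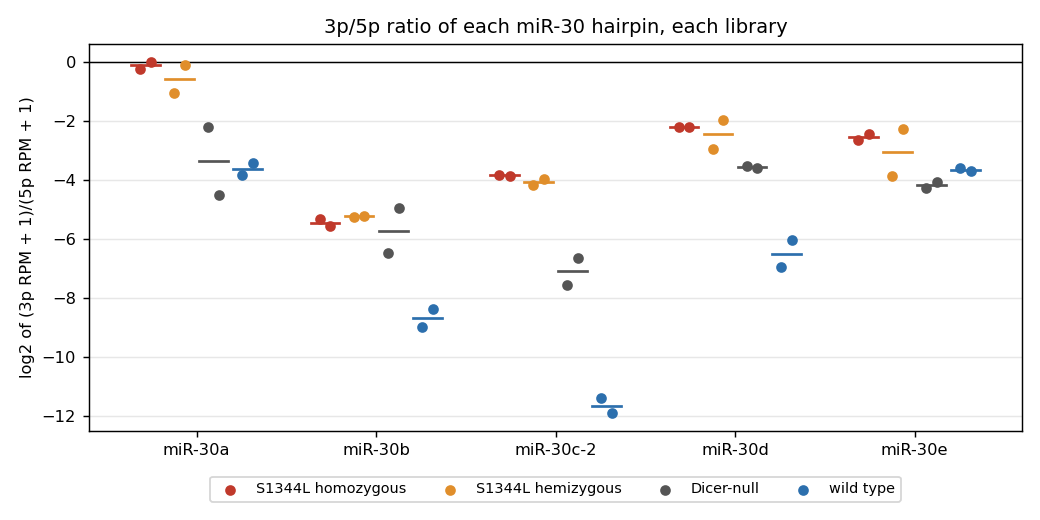
Log2 of (3p RPM + 1)/(5p RPM + 1) for the 5 miR-30 hairpins, with 1 point per library and a bar at the mean of each genotype (n = 2); 0 marks equal arms. The miR-30a hairpin reaches -0.24 and 0.01 in homozygous libraries, against -3.84 and -3.41 in wild-type libraries.

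At the miR-30c-2 hairpin the log2 of 3p over 5p was -3.83 and -3.86 in homozygous libraries, -4.17 and -3.98 in hemizygous libraries, -7.55 and -6.64 in null libraries, and -11.4 and -11.9 in wild-type libraries. The 4 S1344L libraries lay together, far from the wild type, with the null libraries between. The shift was 7.79 ± 0.51 in homozygous cells (limma adjusted p = 1.05e-07) and 7.56 ± 0.51 in hemizygous cells (1.78e-07). Since miR-30c-5p sums 2 loci, this ratio is not that of 1 precursor. The same ratio with miR-30c-1-3p shifted by 6.57 ± 0.51 in homozygous and 6.62 ± 0.51 in hemizygous cells.

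At the miR-30a hairpin the arms came to near equality. The 5p arm made up 54.2% (95% Wilson interval 49.6 to 58.6) and 49.9% (45.1 to 54.7) of the hairpin's reads in homozygous libraries, 67.8% (59.9 to 74.8) and 52.0% (47.3 to 56.6) in hemizygous libraries, 84.0% (71.5 to 91.7) and 97.5% (87.1 to 99.6) in null libraries, and 93.5% (92.3 to 94.6) and 91.5% (90.1 to 92.7) in wild-type libraries. The S1344L libraries were all lower than the wild-type ones, and the null libraries, with 40 to 50 reads, lay on both sides of them. The log2 ratio shifted by 3.51 ± 0.69 in homozygous cells (limma adjusted p = 0.000533) and by 3.04 ± 0.69 in hemizygous cells (0.00156).

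At the miR-30d hairpin the 5p arm held 82.2% and 82.1% of reads in homozygous, 88.5% and 79.7% in hemizygous, 94.2% and 93.2% in null, and 99.2% and 98.5% in wild-type libraries. The log2 ratio shifted by 4.30 ± 0.56 in homozygous cells and by 4.05 ± 0.56 in hemizygous cells (limma adjusted p = 1.87e-05 and 3.37e-05). Of its arms, miR-30d-3p had passed as higher and miR-30d-5p had not passed. At the miR-30b hairpin the shift was 3.21 ± 0.58 and 3.43 ± 0.58 (0.00027 and 0.000179). Its 5p arm still held 97.6% and 98.0% of reads in homozygous libraries, against 99.8% and 99.7% in wild-type libraries.

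The miR-30e hairpin, whose arms differ from those of miR-30a by 1 base each, showed the least change. Its 5p arm held 86.2% and 84.3% of reads in homozygous, 93.5% and 82.8% in hemizygous, 95.5% and 94.5% in null, and 92.4% and 92.8% in wild-type libraries. The homozygous libraries lay below the wild-type ones and the hemizygous libraries on both sides of them. The log2 ratio moved by 1.11 ± 0.59 in homozygous cells (95% interval -0.17 to 2.39, limma adjusted p = 0.0967) and by 0.59 ± 0.59 in hemizygous cells (0.36). In homozygous cells it passed with the 4 libraries alone (adjusted p = 0.017) and with a pseudocount of 5 RPM (0.0492).

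Null cells showed a shift at 3 of 5 hairpins, against 27.9% of all 204, on few reads. It was 4.54 at miR-30c-2, 2.95 at miR-30b and 2.95 at miR-30d (limma adjusted p = 6.41e-05, 0.00252 and 0.00183), where the 3p arms had 1 and 2, 1 and 3, and 3 and 5 reads in the null libraries. The miR-30a and miR-30e hairpins stood at 0.27 and -0.52 (0.769 and 0.489). None of these 3p arms rose. At miR-30c-2, miR-30b and miR-30d they stood at log2 fold changes of -0.74, -2.04 and -3.24, and their 5p arms at -5.28, -4.98 and -6.19. The 3p arms had 0.715 to 6.65 RPM in null libraries, so the 1 RPM added limits how far they can fall. The part of the shift that comes from this floor was not tested. The size of the null shift varied with the pseudocount. Its median over the 5 hairpins was 2.69, 2.95 and 3.61 with 0.5, 1 and 5 RPM added. Directly compared, the ratios passed at 4 of 5 hairpins between homozygous and null cells, at 2 of 5 between hemizygous and null cells, against 79.4% and 77% of all hairpins, and at 0 of 5 between hemizygous and homozygous cells, where limma called 0 (0%) of 204 with 5 at an unadjusted p under 0.05. The count between homozygous and null cells was 2 without either homozygous library or without null replicate 1, and that between hemizygous and null cells was 4 without hemizygous replicate 1.

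Summed over the family, 5p arms held 88.2% and 86.9% of the miR-30 reads in homozygous libraries, 93.4% and 85.9% in hemizygous libraries, 97.4% and 96.6% in null libraries, and 97.2% and 97.1% in wild-type libraries. The S1344L libraries were all below the wild-type ones, and the null libraries lay on both sides. The difference from the wild type was -9.56 points in homozygous, -7.46 points in hemizygous and -0.14 points in null cells (exact permutation p of 0.33, 0.33 and 1, two-sided). With miR-30c-1-3p counted as well, it was -10.99 points in homozygous cells. Leaving out hemizygous replicate 1 or 2 moved the hemizygous difference to -11.2 or -3.70 points.

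Of 9 other miRNAs known to restrain the epithelial-mesenchymal transition, all measured, 3 fell in homozygous cells, 4 in hemizygous cells and 9 in null cells, against 22.1%, 30.5% and 87.4% of all 594 miRNAs, and 0 rose. The median log2 fold change was 0.06 in homozygous, -1.03 in hemizygous and -5.60 in null cells. The 3 that fell in homozygous cells were let-7a-5p (-5.35), miR-205-5p (-4.22) and miR-34a-5p (-5.18), named after their values had been seen, and miR-429 (-3.36) joined them in hemizygous cells. All 3 are 5p arms, like miR-30a-5p and miR-30c-5p, and the list holds no other 5p-named arm. Of all 227 5p-named arms, 48.9% were lower in homozygous cells. The 3p arms of the miR-200 family first on the list did not pass in homozygous cells, with miR-200c-3p at 0.74, miR-141-3p at 0.23 and miR-200b-3p at 1.04. Over the 8 libraries, the miRNAs whose log2(RPM + 1) was most like the mean of the 5p members were miR-138-5p, miR-23b-3p and miR-505-3p (Pearson's r of 0.999, 0.999 and 0.998, against a median of 0.890 over the 584 other miRNAs). Those most like the mean of the 3p members were miR-497-3p, miR-31-3p and miR-498-3p (0.998, 0.997 and 0.997, against a median of 0.822). The points share their libraries and their scaling, and the null libraries were the lowest for the mean of the 5p members and for that of the 3p members.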

How the data were processed

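Small RNA libraries of 8 samples were used, 2 per genotype. Per the labels' protocols, linkers were ligated to gel-selected small RNA of Trizol extracts with spike-ins added, and products were sequenced as single-end reads. Per the submitters' processing notes, cutadapt, limma and the hg38 build were used, with aligner, counting rules and scaling not given in the sources used here. Values as deposited by the authors are log2 RPM, found from their steps to be log2 of reads plus 0.5 over a denominator. Recovered reads were whole to within 7.31e-09. They were turned to RPM without the 0.5 read, where the plan had assumed RPM. The depth per sample, with its counting limits, stands in the results. Wilson intervals and the interval on pooled reads cover counting error only. Intervals on log2 fold changes and on log2 ratios of 3p to 5p come from limma. Those on log2 fold changes rest on a variance trend across all miRNAs, since the prior degrees of freedom were infinite. The spread of an arm between its own libraries had no weight of its own in them. Those on the ratios rest in part on the hairpin's own spread, with 7.52 prior degrees of freedom.

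limma 3.58.1 (R 4.3.3) was run on log2(RPM + 1) as 1 model of group means over 8 libraries with a variance trend, two-sided, with Benjamini-Hochberg adjustment. A minimum of 5 RPM in 2 or more libraries was met by all 594 miRNAs. Hairpins were tested on log2 3p over 5p, arms paired by name; miR-30c-2-3p was paired with miR-30c-5p. The fit was tested on simulated data in which only homozygous cells were changed. Unlike the real data, these held no low hemizygous library and no loss in null cells. Python 3.11.15 made the sums, exact permutation tests and figures. Alternatives were other pseudocounts, filters, scalings, library sets, a replicate block, precision weights on recovered reads, a threshold of 0.01 and each library left out. All 10 members are named, list members by their written order, and the 3 most alike miRNAs by Pearson's r. The members and lists were chosen with earlier results of these data known. Sequences are from RefSeq (GRCh38.p14); those of miR-30b and miR-30d are not shown.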

Additional observations from a re-analysis of the deposited data

How the results depend on the processing

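For some arms the direction held under every alternative run, though not always past the threshold. miR-30c-5p and miR-30a-5p stayed below the wild type in homozygous and hemizygous cells, and miR-30b-3p, miR-30c-2-3p and miR-30d-3p above it. The other 5p arms were less stable. In homozygous cells miR-30b-5p (1.08) and miR-30e-5p (0.89) passed as higher with upper-quartile scaling. miR-30d-5p (-0.59) passed as lower with the 4 libraries alone. Depth limits the 3p arms in null cells and miR-30c-2-3p in wild-type cells, and 2 libraries a genotype limit every test. The scalings differ in what they take as constant: the median log2 fold change of all miRNAs in homozygous, hemizygous and null cells was -0.05, -0.92 and -4.60 as deposited, -0.10, -0.24 and -1.16 scaled to own miRNA reads, 0.37, 0.33 and -0.57 with median-ratio, 0.30, 0.29 and -0.34 with quantile, and 0.83, 0.85 and -0.41 with upper-quartile scaling. The cause of the changes below was not tested.

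Against the wild type, 5 arms passed in homozygous, 5 in hemizygous and 9 in null cells. The 4 compared libraries alone gave 8 in homozygous and 1 in hemizygous cells, upper-quartile scaling gave 8, 8 and 3 in the 3 genotypes, a threshold of 0.01 gave 3 in hemizygous cells, and median-ratio and quantile scaling gave 5 and 5 in null cells. Over all 594 miRNAs the counts were 190 in homozygous (39 to 375 over the alternatives), 205 in hemizygous (109 to 372) and 527 in null cells (266 to 546). Leaving out each library in turn gave 1 to 5 arms in homozygous, 1 to 7 in hemizygous and 7 to 9 in null cells, 0 to 9 between hemizygous and homozygous cells, 8 to 10 between homozygous and null cells and 8 to 10 between hemizygous and null cells. On the same leave-outs the hairpin counts against the wild type were 4, 4 and 3 of 5 in homozygous, hemizygous and null cells, and ran from 2 to 4 both between homozygous and null cells and between hemizygous and null cells. In homozygous cells 5 of 5 passed with a pseudocount of 5 RPM and with the 4 libraries alone; in null cells 2 of 4 tested passed with the 4 libraries alone. With exact arm names, which leave 4 hairpins, 3, 3 and 2 passed against the wild type and 1 between hemizygous and null cells, and at a threshold of 0.01, 2 passed between homozygous and null cells. The log2 difference of the summed 5p arms ran from -0.91 to -0.63 in homozygous, -2.33 to -0.63 in hemizygous and -5.46 to -5.05 in null cells on leaving out libraries. With median-ratio scaling it was -0.36, -0.17 and -0.72 in the 3 genotypes, with scaling to own miRNA reads -1.34 in null cells, and without miR-30c-5p -0.14 in homozygous cells. The 5p share ran from -10.2 to -8.91, -11.2 to -3.70 and -0.53 to 0.25 points, was -8.51 points in homozygous cells without miR-30c-5p and -8.19 with exact-name hairpins, -10.99 with miR-30c-1-3p (an alternative, like keeping the 0.5 read, chosen after seeing the data), and 0.0987 points in null cells with exact-name hairpins.

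These signs turned. In homozygous cells miR-30e-5p was 0.40 with median-ratio, 0.89 with upper-quartile and 0.16 with quantile scaling, and -0.14 to 0.10 on leaving out libraries, and miR-30d-5p was 0.32 with upper-quartile scaling. In hemizygous cells, scaling to own reads, median-ratio, upper-quartile and quantile scaling gave 0.62, 1.19, 1.69 and 1.40 for miR-30a-3p, 0.0748, 0.66, 1.17 and 0.73 for miR-30b-5p, 0.0872, 0.67, 1.19 and 0.40 for miR-30e-5p and 0.67, 1.26, 1.77 and 1.54 for miR-30e-3p, and the last pair gave 0.38 and 0.0291 for miR-30d-5p. On leaving out libraries these ran from -1.57 to 1.38 for miR-30a-3p, -1.64 to 0.33 for miR-30b-5p, -1.41 to 0.12 for miR-30e-5p and -1.61 to 1.503 for miR-30e-3p, lowest without hemizygous replicate 2 and highest without replicate 1. In null cells the 4 scalings in the same order gave 1.08, 1.59, 1.70 and 1.15 for miR-30b-3p, 2.09, 2.48, 2.51 and 1.90 for miR-30c-2-3p and 0.31, 0.89, 1.04 and 0.50 for miR-30d-3p. Against null cells they gave miR-30a-5p at -1.25, -1.39, -1.06 and -1.16 in homozygous and -1.26, -1.28, -0.93 and -1.16 in hemizygous cells, and miR-30c-5p at -2.15, -2.29, -1.96 and -2.31 in homozygous and -2.0015, -2.03, -1.67 and -2.04 in hemizygous cells. The median of the arms between hemizygous and homozygous cells was 0.0525, 0.0739 and 0.0149 with median-ratio, upper-quartile and quantile scaling, and -1.80 to 0.22 on leaving out libraries. The 3p/5p change ran from -0.20 to 1.38 for miR-30e in hemizygous cells and from -0.88 to 1.42 for miR-30a in null cells.

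Nothing in the labels ties same-numbered libraries to a shared batch. Their deviations correlated across miRNAs between -0.10 and 0.61, and the value of 0.61, between hemizygous and wild-type cells, does not exclude one there. With the replicate block, 5, 5 and 9 arms passed against the wild type, 203, 227 and 532 of all miRNAs, and 4, 4 and 3 hairpins.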
